A study of Homo sapiens with 6 samples.

Results

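Erlotinib raised TXNIP and the alpha-arrestin genes ARRDC1, ARRDC2 and ARRDC3 in HCC827 cells and lowered MLXIP and MLX, which encode the glucose sensor MondoA and its partner. The 8 genes described here are TXNIP, the alpha-arrestin genes ARRDC1 to ARRDC4, and the glucose-sensor genes MLXIP (MondoA), MLXIPL (ChREBP) and MLX. They were taken by gene symbol, and all 8 were found among the 28395 genes of the table. HCC827 is a human lung adenocarcinoma cell line with an activating EGFR mutation, and erlotinib is an inhibitor of the EGFR kinase. Cells from this single line were grown to subconfluence and given either DMSO, the vehicle, or erlotinib at 1 µM for 24 h, with 3 libraries in each group. Libraries were made from poly(A)-selected RNA, and the comparison asks which transcripts respond to EGFR inhibition. The labels do not say whether libraries came from separate cultures, so p-values measure the spread between these libraries, which may be technical.

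TXNIP, the thioredoxin-interacting protein, is an alpha-arrestin that binds and inhibits thioredoxin and promotes removal of the glucose transporter GLUT1 from the cell surface. The ARRDC proteins share its arrestin fold and act as adaptors that bring ubiquitin ligases of the NEDD4 family to membrane proteins. MondoA and ChREBP respond to glucose-6-phosphate, pair with MLX and bind carbohydrate response elements, of which those of TXNIP and ARRDC4 are well-known examples. TXNIP is known both as a readout of glucose sensing and as a brake on glucose uptake.

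Values are given as signal, which is the number of reads assigned to a gene divided by 1 size factor per library. The reads behind the signals summed to 20858083, 24641819 and 21172884 in DMSO1 to DMSO3 and to 21944007, 20760204 and 21678395 in Erlo4 to Erlo6. These library names are those of the table columns. Of the 14215 genes tested, those whose mean signal reached 10, 5012 (35.3%) rose and 5031 (35.4%) fell with erlotinib at an adjusted p under 0.05 (limma, Benjamini-Hochberg), so that a change in either direction was the common outcome (70.7%). All 8 genes were among those tested. Of them 5 rose, 2 fell and ARRDC4 did not pass the threshold. In bulk RNA a change in the share of cells that carry a transcript and a change in its amount per cell cannot be told apart.

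The windows before the transcription starts of TXNIP and ARRDC4 are shown because both genes are known for their carbohydrate response elements. Here TXNIP rose, whereas ARRDC4 did not pass the threshold. The sequences are from RefSeq (GRCh38.p14), which held 11 such windows for the 8 genes. Each line is the 250 bases before the annotated start, written 5′ to 3′ on the strand of the gene, and capitals mark every match to the motifs described after them. TXNIP lies on the minus strand (chr1:145996580-145996829) and ARRDC4 on the plus strand (chr15:97960453-97960702).
TXNIP: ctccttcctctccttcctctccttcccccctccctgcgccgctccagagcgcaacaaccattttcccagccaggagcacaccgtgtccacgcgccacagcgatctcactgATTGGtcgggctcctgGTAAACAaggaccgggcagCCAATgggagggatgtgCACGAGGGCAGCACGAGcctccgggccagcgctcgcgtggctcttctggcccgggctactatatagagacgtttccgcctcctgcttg
ARRDC4: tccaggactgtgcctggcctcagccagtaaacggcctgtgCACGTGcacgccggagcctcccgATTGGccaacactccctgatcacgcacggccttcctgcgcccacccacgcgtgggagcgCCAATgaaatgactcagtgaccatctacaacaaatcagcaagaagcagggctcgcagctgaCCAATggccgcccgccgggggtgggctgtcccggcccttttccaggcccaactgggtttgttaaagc

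The motifs were searched on both strands. They were the E-box CACGTG, the carbohydrate response element (CACGNG, a spacer of 5 bases of any kind, and CACGNG again), the FOXO motif TGTTTAC and the CCAAT box CCAAT. The printed TXNIP window held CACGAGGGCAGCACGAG from 88 to 72 bases before the start, a match to the carbohydrate response element, and 16 of 35116 promoter windows of the same length contained such a match (0.0456%). It also held GTAAACA, the FOXO motif read on the other strand, from 124 to 118 bases before the start, and a pair of CCAAT boxes. The window before a second annotated start of TXNIP (chr1:145995745-145995994) held no match to any of the motifs. The ARRDC4 window had no match to the spaced element but held 1 E-box, from 210 to 205 bases before the start, and 3 CCAAT boxes. The search allowed no mismatch, so an element with other letters, or one outside the 250 bases, would be missed. E-boxes were present in 6.34% of all windows, FOXO motifs in 2.98% and CCAAT boxes in 32%. Among the other members, MLX had an E-box from 50 to 45 bases before its start and a CCAAT box from 66 to 62. A second annotated start of ARRDC3 had TGTTTAC from 29 to 23 bases before it. The windows of MLXIP and ARRDC1 held a CCAAT box and no other match, and that of MLXIPL held none. The MLXIPL window (chr7:73624523-73624772) lay inside the interval given below for the gene, and none before its outer end, 73647907, was searched. The first start of ARRDC3 and the second of ARRDC2 had a CCAAT box alone, and the first start of ARRDC2 had no match. No motif overlapped another in these windows. A match describes the letters and not the binding of a factor, and the table does not show which start was used.

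TXNIP (Entrez gene 10628, chromosome 1, 145992435 to 145996579, minus strand, RefSeq GRCh38.p14 as for all positions given here) had signals of 3250, 3960 and 3424 in DMSO1, DMSO2 and DMSO3 and of 10661, 10226 and 11148 in Erlo4, Erlo5 and Erlo6. Each erlotinib library was above every DMSO library, as was the case for 36.7% of the genes tested, while 36.9% had every erlotinib library below and 73.6% were apart in 1 direction or the other. The mean rose from 3545 ± 370.0 to 10678 ± 461 (SD, n = 3 each), 3.01-fold. On the log2 scale this was 1.59 with a standard error of 0.073 (adjusted p = 7.0e-14, limma). This change was above that of 90.6% of the genes tested.

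**Figure D1:**
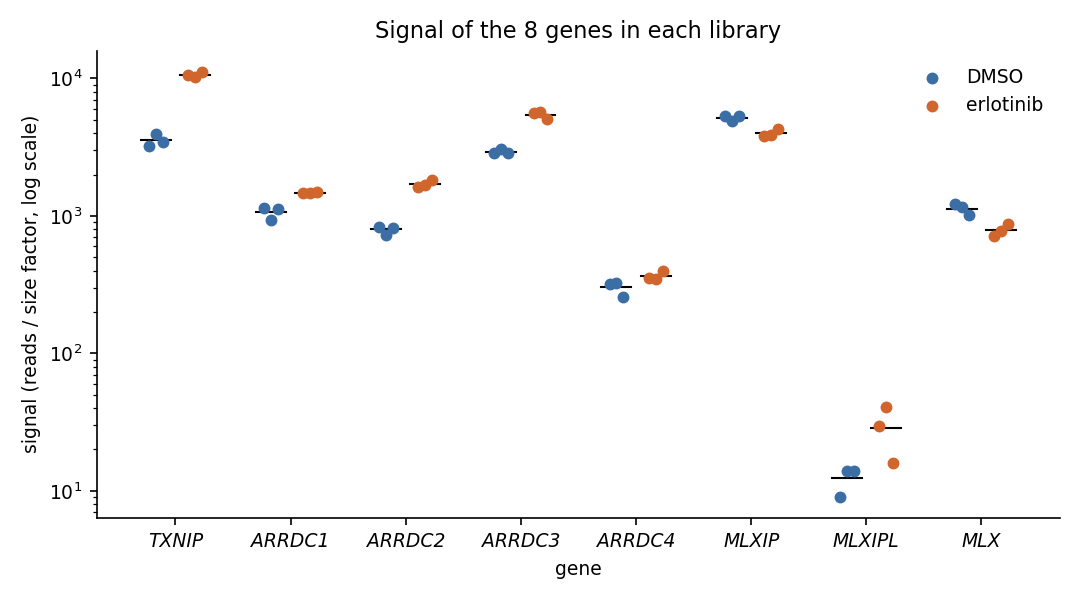
Signal of the 8 genes in each library, on a logarithmic axis, with DMSO libraries in blue and erlotinib libraries in orange (DMSO1 to DMSO3 and Erlo4 to Erlo6 from left to right). Black lines are group means. TXNIP had the largest separation, from 3545 to 10678, and MLXIPL lay near the lower limit, between 9.08 and 40.6.

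ARRDC2 and ARRDC3 followed TXNIP in direction with smaller changes. ARRDC3 (chromosome 5, 91368631 to 91383317, minus strand) encodes an adaptor known to act on the beta2-adrenergic receptor and on integrin beta4. Its signal was 2861, 3071 and 2853 in the DMSO libraries and 5574, 5706 and 5071 in the erlotinib libraries. The groups did not overlap, and the mean rose from 2929 ± 124 to 5450.2 ± 335 (1.86-fold, log2 fold change 0.89, standard error 0.069, adjusted p = 2.6e-10, limma).
ARRDC2 (chromosome 19, 18001124 to 18014102, plus strand), a less studied member of the family, had signals of 837, 729.9 and 823 with DMSO and of 1633, 1684 and 1823 with erlotinib. These groups were also apart, with means of 797 ± 58.3 and 1714 ± 98.5 (2.15-fold, log2 fold change 1.10, standard error 0.085, adjusted p = 2.8e-10, limma).

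ARRDC1 changed less. This gene (chromosome 9, 137605686 to 137615360, plus strand) encodes an adaptor that recruits TSG101 to the plasma membrane for the budding of microvesicles. Its signal was 1146, 939.8 and 1129 with DMSO, and with erlotinib it was nearly the same in each library at 1472, 1467 and 1482. The lowest erlotinib library was above the highest DMSO library, and the means were 1072 ± 114 and 1474 ± 7.48 (1.38-fold, log2 fold change 0.46, standard error 0.087, adjusted p = 7.0e-05, limma). The antisense gene ARRDC1-AS1 overlaps exons of ARRDC1, and the counting was not stated to use strand, so reads of the pair cannot be told apart. The signal assigned to ARRDC1-AS1 was 571 ± 15.8 with DMSO and 537 ± 27.2 with erlotinib (adjusted p = 0.43, limma), and its groups overlapped. For ARRDC3 the overlapping ARRDC3-AS1 was far lower, at 30.5 ± 13.6 and 51.3 ± 13.5 (adjusted p = 0.051, limma), and it passed as higher without DMSO3 (adjusted p = 0.011) or Erlo4 (0.039), with a pseudocount of 10 (0.037) and with at least 10 reads required in every library (0.036).

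ARRDC4 (chromosome 15, 97960703 to 97973833, plus strand) is known to respond to glucose together with TXNIP and to act on glucose transport as TXNIP does. Its signal was 319, 327 and 259 in the DMSO libraries and 355, 345 and 394 in the erlotinib libraries. The erlotinib libraries were all higher, but the closest libraries of the groups, DMSO2 and Erlo5, were separated by less than the spread within either group. The means were 302 ± 37.1 and 365 ± 25.7 (1.21-fold), and the log2 fold change of 0.28 had a 95% interval from 0.013 to 0.55 before adjustment and an adjusted p of 0.057 (standard error 0.13, limma). The call depended on the processing: edgeR on the recovered reads gave 0.29 with an adjusted p of 0.044, and limma without DMSO1 or without DMSO2 gave 0.32 and 0.34 with adjusted p-values of 0.047 and 0.022. In contrast, limma without DMSO3 gave 0.17 (adjusted p = 0.24) and without Erlo6 0.22 (adjusted p = 0.20).
TXNIP and ARRDC4 were compared through their ratio. The ratio of TXNIP to ARRDC4 signal was 10.2, 12.1 and 13.2 with DMSO and 30.0, 29.6 and 28.3 with erlotinib, a difference of 1.32 on the log2 scale. The groups did not overlap, and the two-sided exact permutation test gave p = 0.1, the smallest that 3 against 3 libraries allow. The ratio of TXNIP to ARRDC3 rose from 1.21 ± 0.077 to 1.97 ± 0.21, again without overlap (exact permutation p = 0.1).

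Of the glucose-sensor genes, MLXIP and MLX fell. MLXIP, which encodes MondoA, was the most highly expressed of the 3 genes (chromosome 12, 122078756 to 122147344, plus strand). Its signal was 5342, 4899 and 5344 with DMSO and 3790.0, 3879 and 4284 with erlotinib. The groups did not overlap, and the mean fell from 5195 ± 256 to 3984 ± 264 (log2 fold change −0.38, standard error 0.069, adjusted p = 4.7e-05, limma).
MLX, the common partner of MondoA and ChREBP (chromosome 17, 42567100 to 42573203, plus strand), had signals of 1222, 1152 and 1010.4 with DMSO and of 712, 779 and 867 with erlotinib. All erlotinib libraries were lower, and the mean fell from 1128 ± 108 to 786 ± 77.4 (log2 fold change −0.52, standard error 0.097, adjusted p = 7.0e-05, limma). The ratio of MLX to MLXIP was 0.218 ± 0.025 with DMSO and 0.197 ± 0.0079 with erlotinib, and these groups overlapped (exact permutation p = 0.3).
PSMC3IP, a recombination factor gene on the opposite strand, shares exon sequence with MLX. Its signal was 166 ± 13.8 with DMSO and 35.5 ± 2.77 with erlotinib (log2 fold change −2.19, adjusted p = 1.6e-08, limma), and whether reads of one were assigned to the other was not tested. A stretch of chromosome 2 matched 69.8% of the MLX transcript at 83.2% identity. Partial matches elsewhere covered 35.2% to 35.4% of the ARRDC3 transcript at 81.7% to 83.2% identity, and at most 24.5% of that of MLXIP. No member had a copy that covered 90% of its transcript at 97% identity elsewhere in the genome.

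MLXIPL, which encodes ChREBP, the form best known from liver and fat, was at the lower limit of what these libraries measured (chromosome 7, 73593202 to 73647907, minus strand). It had 8, 15 and 13 reads with DMSO and 32, 41 and 17 with erlotinib, against a floor of 3 reads. The corresponding signals were 9.08, 13.9 and 13.9 and then 29.5, 40.6 and 15.9. Erlo6 was close to the DMSO libraries, although the groups did not overlap. The means were 12.3 ± 2.80 and 28.7 ± 12.4, and the log2 fold change of 1.09 had a 95% interval from 0.12 to 2.05 (adjusted p = 0.042, limma). This call was lost with a pseudocount of 0.1 (adjusted p = 0.053, limma), without DMSO1 (0.10), without Erlo4 (0.12) and without Erlo5 (0.22), where the log2 fold change was 0.80.

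**Figure D2:**
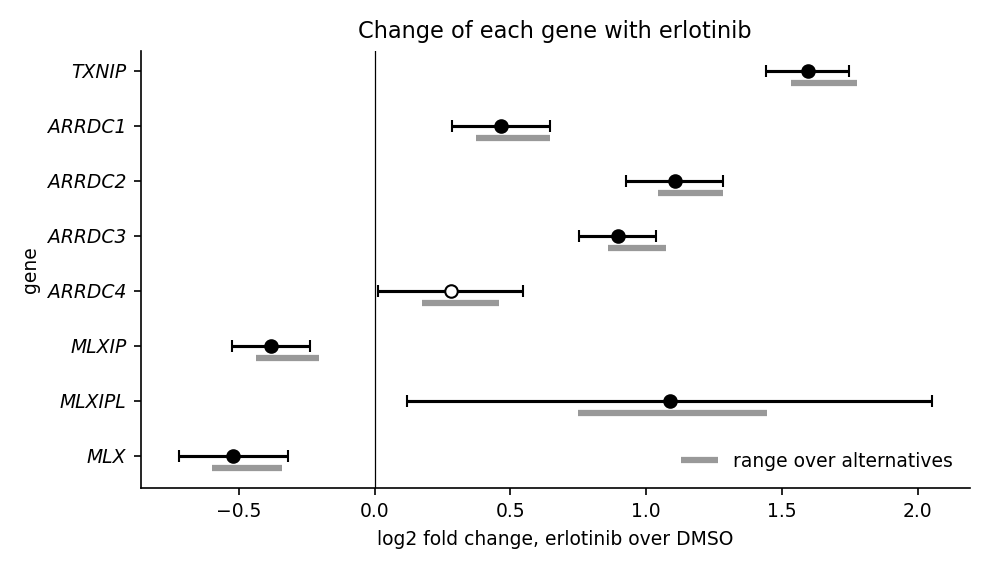
Log2 fold change of each gene with erlotinib relative to DMSO (points, filled where the adjusted p was under 0.05) with 95% intervals from limma, and in grey the range of the estimate over the alternative settings. TXNIP lay at 1.59 and ARRDC4 at 0.28, and MLXIP and MLX lay below 0 under every setting tried.

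Levels were compared between genes as signal per kb of merged exons. With DMSO the order was TXNIP at 984 ± 103, ARRDC3 at 587 ± 24.8, MLXIP at 375 ± 18.5, ARRDC1 at 283 ± 30.2, MLX at 265 ± 25.3, ARRDC2 at 172 ± 12.6, ARRDC4 at 74.2 ± 9.13 and MLXIPL at 2.56 ± 0.58 (SD, n = 3). In this order only ARRDC1 and MLX, which are neighbours, had libraries that overlapped. With erlotinib TXNIP was at 2963 ± 128 and ARRDC3 at 1093 ± 67.3, followed by ARRDC1 at 389 ± 1.97 and ARRDC2 at 370 ± 21.2, whose libraries overlapped. MLXIP came next at 287 ± 19.0, then MLX at 185 ± 18.2, ARRDC4 at 89.8 ± 6.33 and MLXIPL at 5.96 ± 2.57. Among the 13803 genes with a length, TXNIP moved from rank 922 to rank 128 in signal per kb. ARRDC3 moved from rank 1748 to rank 593, and MLXIP from rank 2843 to rank 3245. The order of the middle genes depended on the length used, and with the length of the canonical transcript ARRDC1 at 689 ± 73.5 stood above MLXIP at 619 ± 30.6 with DMSO, with overlapping libraries. TXNIP and ARRDC3 were the highest in both groups with either length, although the libraries of ARRDC3 and ARRDC1 then overlapped with DMSO.

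Summed over the 5 alpha-arrestin genes, signal per kb was 2037, 2201 and 2062 in the DMSO libraries and 4904, 4817 and 4992 in the erlotinib libraries. The groups did not overlap, and the mean rose from 2100 ± 88.3 to 4904 ± 87.0, 2.34-fold (exact permutation p = 0.1). TXNIP made up 44.3%, 49.9% and 46.1% of this sum with DMSO and 60.3%, 58.9% and 62.0% with erlotinib. Its share thus rose by 13.6 percentage points with no overlap between the groups (exact permutation p = 0.1, the smallest possible). ARRDC3 gave 28.0% ± 0.21 of the sum with DMSO and 22.3% ± 1.74 with erlotinib, ARRDC1 13.5% ± 1.96 and 7.93% ± 0.10, and ARRDC4 3.53% ± 0.39 and 1.83% ± 0.098. These shares were lower in every erlotinib library (exact permutation p = 0.1 each), whereas that of ARRDC2 was 8.21% ± 0.92 and 7.53% ± 0.35 with overlapping groups (exact permutation p = 0.4). The 5 shares sum to a whole and are not independent. Over the 10 exact tests of shares, sums and ratios made here, the adjusted p was 0.125 for each test at 0.1.

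**Figure D3:**
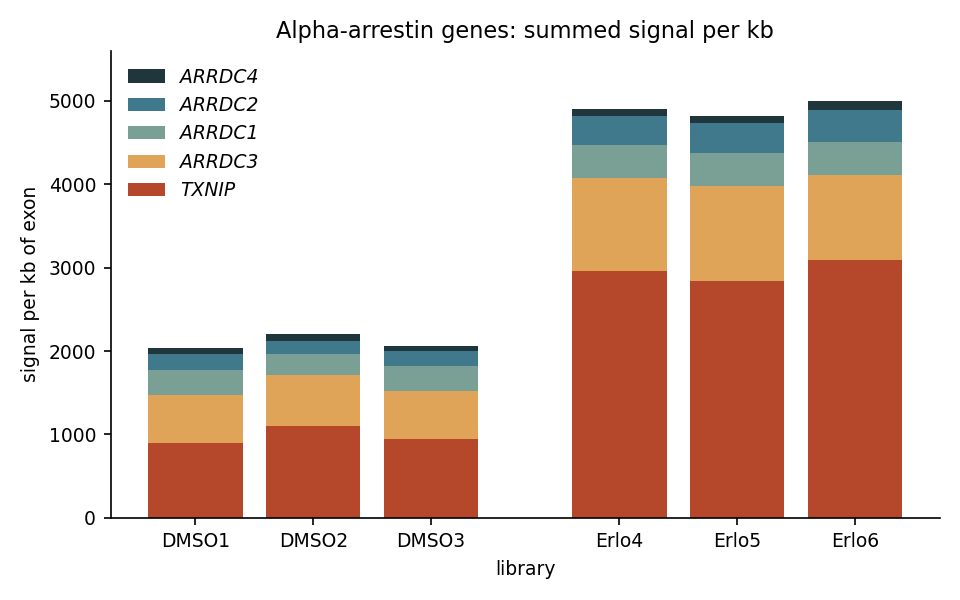
Signal per kb of merged exons of the 5 alpha-arrestin genes, stacked for each library. The stacks reached 2037 to 2201 in the DMSO libraries and 4817 to 4992 in the erlotinib libraries, and the TXNIP segment (red) accounted for the largest part of the difference.

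Genes known as targets of MondoA or ChREBP formed the first of 6 lists read from the same fit. TXNIP and ARRDC4 were not in it. Of its 21 genes 14 were tested, 1 rose, 10 fell and 3 did not pass the threshold, against 35.3% rising and 35.4% falling among all genes. The median log2 fold change was −0.92, compared with 0.02 over all genes. SCD, the stearoyl-CoA desaturase of fatty acid synthesis, had signals of 42149, 43239 and 42767 with DMSO and of 5082, 4928 and 5009.8 with erlotinib (log2 fold change −3.09, adjusted p = 2.3e-19, limma). ELOVL6, a fatty acid elongase, fell from 4588 ± 412 to 891 ± 43.6 (−2.36, adjusted p = 5.5e-16, limma). The single gene that rose was TKT, the transketolase of the pentose phosphate pathway, from 8181 ± 924 to 13628 ± 447 (0.74, adjusted p = 1.6e-08, limma). TXNIP rose while 10 of the 14 tested genes of this list fell. Whether MondoA or ChREBP controlled TXNIP or the listed genes in these cells was not tested. ACACA and PKLR were among the 7 genes not tested, with at most 10 and 2 reads in a library. Their whole transcripts had a second copy at 100% identity on an alternate contig of the reference, and the part of this in their low counts was not tested.

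Of the 16 glucose transporter and hexokinase genes 11 were tested, of which 4 rose (36.4%) and 5 fell (45.5%). The shares over all genes were 35.3% and 35.4%, and the list median was −0.27. SLC2A1, which encodes GLUT1, had signals of 14026, 12708 and 13992 with DMSO and of 2600, 2747 and 2790 with erlotinib (log2 fold change −2.32, adjusted p = 4.8e-17, limma). The groups were far apart, and the direction was opposite to that of TXNIP, the protein known to internalize GLUT1. HK2, the inducible hexokinase and also a member of the first list, fell from 3470.1 ± 89.0 to 974 ± 32.4 (−1.83, adjusted p = 6.4e-15, limma), and HK1, the housekeeping form, fell from 2416 ± 279 to 1188 ± 23.0 (−1.02, adjusted p = 8.3e-10, limma). The largest rises were in transporter genes of low signal. SLC2A12 rose from 59.5 ± 0.47 to 212 ± 13.4 (1.82, adjusted p = 1.8e-08, limma) and SLC2A10 from 47.1 ± 9.08 to 114 ± 10.2 (1.26, adjusted p = 6.1e-05, limma). SLC2A3, the gene of GLUT3, was below the filter, with at most 15 reads in a library.

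The thioredoxin system, the redox partner of TXNIP, was tested in full. Of its 14 genes 3 rose (21.4%) and 8 fell (57.1%), against 35.3% and 35.4% of all genes, and the median was −0.42. TXN, the cytosolic thioredoxin that TXNIP binds, had signals of 1318, 1117 and 1242 with DMSO and of 468, 445 and 457.7 with erlotinib (log2 fold change −1.42, adjusted p = 2.4e-11, limma). All erlotinib libraries were lower. The ratio of TXNIP to TXN signal, 2.47, 3.54 and 2.76 with DMSO, became 22.8, 23.0 and 24.4 with erlotinib, a difference of 3.01 on the log2 scale (exact permutation p = 0.1). TXNRD1, the reductase that recharges thioredoxin, was at 26175 ± 2290 and 27517 ± 480.3, with overlapping groups (adjusted p = 0.33, limma), and passed as higher without DMSO2 (log2 fold change 0.14, adjusted p = 0.011). GLRX2, a mitochondrial glutaredoxin, fell from 420.1 ± 61.4 to 156 ± 24.5 (−1.42, adjusted p = 4.2e-08, limma). TXNRD3 rose from 50.9 ± 6.09 to 94.0 ± 10.9 (0.87, adjusted p = 0.0024, limma) and GLRX, the cytosolic glutaredoxin, from 330.3 ± 43.3 to 426 ± 51.6 (0.37, adjusted p = 0.015, limma). The call of GLRX was lost without DMSO3 (adjusted p = 0.068, limma) or Erlo4 (0.11).

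MLX also belongs to a wider network in which MAX pairs with MYC or with the MXD repressors. Of 10 genes in this list 9 were tested, 4 rose (44.4%) and 2 fell (22.2%), beside 35.3% and 35.4% over all genes (median 0.28). MXD4 rose from 780.3 ± 141 to 4495 ± 53.6 (log2 fold change 2.54, adjusted p = 6.6e-15, limma) and MXI1 from 673 ± 60.8 to 1885 ± 89.1 (1.49, adjusted p = 3.5e-12, limma), and both encode repressors of the MXD family. MYCL had the largest rise, from 48.3 ± 10.4 to 398 ± 36.6 (3.03, adjusted p = 7.0e-12, limma). MYC fell from 13421 ± 716 to 10961 ± 268 (−0.29, adjusted p = 0.00033, limma) and MGA from 2106 ± 197 to 1742 ± 240 (−0.28, adjusted p = 0.011, limma). With libraries scaled to their total counts neither passed (adjusted p = 0.12 and 0.37), and the call of MGA was also lost without Erlo4 (0.054) or Erlo5 (0.093). MAX was at 2423 ± 136 and 2459.5 ± 58.3 (adjusted p = 0.78, limma).

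Transcripts for proteins that work with alpha-arrestins were read in the next list. Of 13 genes for NEDD4-family ligases and partners of the ESCRT machinery 12 were tested, of which 4 rose, 4 fell and 4 did not pass (33.3% in each direction, near the 35.3% and 35.4% of all genes, median 0.08). NEDD4 itself had signals of 2023, 2336 and 1785 with DMSO and of 937, 877 and 971 with erlotinib (log2 fold change −1.13, adjusted p = 6.3e-10, limma). Its closest relative NEDD4L went the other way, from 1523 ± 70.3 to 2203 ± 155 (0.53, adjusted p = 3.2e-06, limma). ITCH, a ligase known to ubiquitinate TXNIP, fell from 3399 ± 156 to 2553 ± 116 (−0.41, adjusted p = 2.1e-05, limma), and SMURF2 fell from 5034 ± 123 to 3135 ± 81.0 (−0.68, adjusted p = 6.2e-09, limma). HECW2 rose from 86.0 ± 15.2 to 264 ± 39.5 (1.61, adjusted p = 1.1e-07, limma). TSG101, the ESCRT-I subunit that ARRDC1 recruits, rose from 433 ± 24.2 to 671 ± 53.9 (0.63, adjusted p = 1.7e-05, limma). WWP1 was at 178 ± 26.6 and 203 ± 9.51 (adjusted p = 0.27, limma).

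The last list held ARRDC5, an alpha-arrestin gene outside the 8 members, the visual and beta-arrestin genes and genes with a related fold. Of its 9 genes 7 were tested, 3 rose (42.9%, with 35.3% over all genes) and 1 fell (14.3%, with 35.4%), and the median was 0.17. The beta-arrestins, which desensitize G protein-coupled receptors, were measured by both of their genes. ARRB1 had signals of 453, 355 and 529.8 with DMSO and of 3067, 3009 and 3019 with erlotinib, and the groups were far apart (log2 fold change 2.78 beside 1.59 for TXNIP, adjusted p = 5.4e-15, limma). ARRB2 was at 451 ± 22.6 and 508 ± 25.3 (0.17, adjusted p = 0.15, limma). The retromer subunit genes VPS26A and VPS26B had log2 fold changes of −0.31 and 0.18 (adjusted p = 0.0013 and 0.039, limma). The call of VPS26A was lost with libraries scaled to their total counts (adjusted p = 0.13), and the call of VPS26B was lost when any library but DMSO1 was left out, with adjusted p-values up to 0.12. ARRDC5 had at most 4 reads in a library and was not tested.

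**Figure D4:**
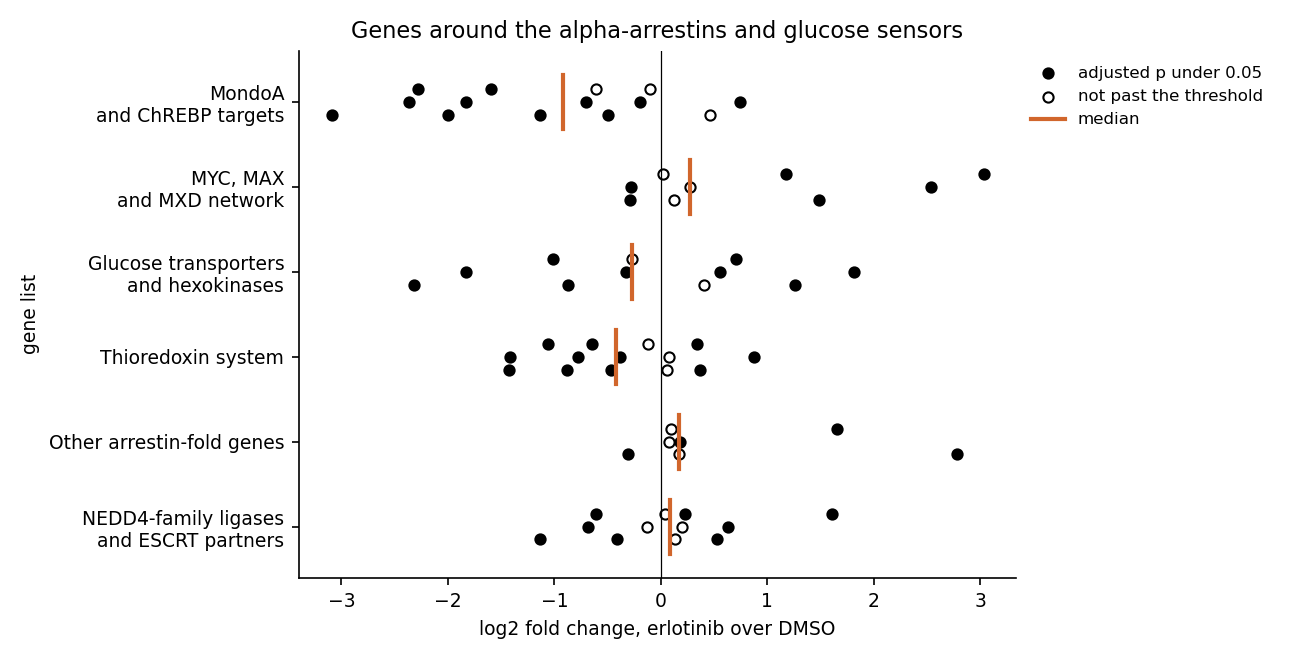
Log2 fold change with erlotinib relative to DMSO of each tested gene in the 6 lists (points, filled where the adjusted p was under 0.05), spread vertically for legibility, with list medians in orange. The MondoA and ChREBP target list had a median of −0.92 and only TKT past the threshold above 0, whereas the NEDD4-family list lay on both sides with a median of 0.08.

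Profiles over the 6 libraries were compared among 11061 genes whose mean signal reached 100, each on the log2 scale and centred on its DMSO mean. The profile of TXNIP was nearest to those of ERBB3, ASAH1, ATP7A, SYTL2 and ZBTB46, with root mean square differences of 0.067 to 0.079 log2 units. ERBB3, a receptor that pairs with EGFR, had mean signals of 1783 with DMSO and 5723 with erlotinib. ASAH1, the lysosomal acid ceramidase, had 882 and 2590.0, and ATP7A, a copper transporter, had 318 and 936. The 5 genes nearest to ARRDC4 were FAM172A, USP49, CCDC25, PARVA and DNAJC6, with differences of 0.047 to 0.061. These are descriptions over 6 libraries in 2 groups, where any gene with a like change has a like profile.

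Cell type markers were read to see what the libraries held. Of 11 lung epithelial markers 9 were tested, and all 11 had reads in at least 1 library. KRT7 was the most abundant at 123686 ± 7643 with DMSO and 79897 ± 2922 with erlotinib, EPCAM was at 9852 ± 235 and 9485 ± 281, and the keratin-dominated summed signal of the list was 258890 to 291149 with DMSO and 201625 to 206995 with erlotinib. Of the 9 tested, 3 rose, 4 fell (KRT7, KRT8, KRT18 and KRT19), and EPCAM and CDH1 did not pass, where 70.7% of all genes passed in 1 direction or the other. The mucin gene MUC1 rose from 419.7 ± 50.1 to 2961 ± 103 (log2 fold change 2.82, adjusted p = 3.3e-16, limma), NAPSA, an aspartic protease of alveolar cells, from 986 ± 74.9 to 3733 ± 156 (1.92, adjusted p = 8.4e-15, limma) and NKX2-1, the lung lineage transcription factor, from 3002 ± 209 to 8644 ± 408 (1.53, adjusted p = 5.2e-14, limma). The surfactant gene SFTPC had at most 2 reads in a library and SFTPB at most 13. The 6 fibroblast markers summed to 73.7 to 109 with DMSO and 215 to 260.2 with erlotinib, most of it COL1A1, while COL1A2 and COL3A1 had at most 2 reads. The 6 leukocyte markers summed to 2787 to 3172 and 3241 to 3538, nearly all of it CD68 (log2 fold change 0.23, adjusted p = 0.0076, limma), and PTPRC had at most 6 reads. The 4 endothelial markers summed to 15.8 to 34.0 and 45.9 to 58.1. VWF was higher with erlotinib with at most 38 reads in a library, PECAM1 was at 15.7 ± 3.29 and 10.4 ± 2.20 (adjusted p = 0.35, limma), and KDR had at most 4 reads. The fibroblast, leukocyte and endothelial sums were higher in each erlotinib library than in every DMSO library, the direction of TXNIP. Among single genes tested, 36.7% were placed this way. The part of these markers in the results was not tested.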

How the data were processed

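RNA-seq was measured in 3 DMSO and 3 erlotinib libraries of HCC827 cells. Per the study's methods and the submitters' processing notes, read pairs were aligned to GRCh38 by the authors (Bowtie2 2.3.4), unique alignments were counted per gene (featureCounts 1.6.3) and DESeq2 1.18.1 was used for testing. The deposited values are a signal per gene, the reads divided by 1 size factor per library, with no counts beside them. Dividing each library by the value of 1 read returned whole reads within 0.01 for 100% of values and gave 20760204 to 24641819 reads per library and size factors of 0.882 to 1.08. The floor of 3 reads covers counting error only. The 95% intervals come from limma and measure the spread between these libraries.

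Genes whose mean signal reached 10 were tested with limma 3.58.1 (R 4.3.3, moderated with a trend, two-sided) on log2(signal + 1), with no covariate and Benjamini-Hochberg adjustment over 14215 genes, at 0.05. Fold changes are on that scale, which understates low genes. Single values were compared with exact permutation tests (scipy 1.17.1). Alternatives were edgeR 4.0.16, DESeq2 1.42.0 and limma-voom on the recovered reads, other scalings, pseudocounts and filters, a stricter threshold, and each library left out. On simulated data with 13656 genes tested, limma recovered 85 of 100 changes of 1 log2 unit and 98 of 98 of 2 log2 units. There were 14 false calls among 197 calls. Far fewer genes were changed in the simulation than the 70.7% called in the data. Its size factors were taken as known, so errors of scaling were not covered. Lengths were taken from GENCODE 44, promoter windows from RefSeq GRCh38.p14, and gene coordinates from the RefSeq annotation of GRCh38. Copies of 90 genes, including all 8 members, were searched with minimap2.

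The members and the gene lists were chosen with earlier results of these data known. Besides the members, the text names fixed genes of each list, the 2 largest rises and falls in each list among genes past the threshold with a mean signal of at least 50, the 5 profiles most like TXNIP and ARRDC4, and genes overlapping a member. ACACA, PKLR, ARRDC5 and single cell type markers were named after their values were seen.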

Additional observations from a re-analysis of the deposited data

How the results depend on the processing

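TXNIP, ARRDC1, ARRDC2, ARRDC3, MLXIP and MLX kept their direction and their side of the threshold under all 16 alternatives. The log2 fold change of TXNIP ranged from 1.53 to 1.78 and that of MLX from −0.60 to −0.34. ARRDC4 passed the threshold with libraries scaled to their total counts (0.46), with edgeR (0.29) and with limma-voom (0.29), and it ranged from 0.17 to 0.34 when 1 library was left out. MLXIPL did not pass with a pseudocount of 0.1 (1.14), without a filter (1.09) or at an adjusted p under 0.01 (1.09). It ranged from 0.80 to 1.44 with 1 library left out, and it was not tested where 10 reads in every library were required. The cause was not tested.

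Over all genes, 4323 to 6156 rose and 3955 to 5140 fell across the alternatives. Scaling to total counts moved the median log2 fold change of all genes from 0.02 to 0.20 and the split from 5012 higher and 5031 lower to 6156 and 3955, since the summed signal was lower in the erlotinib libraries. Under that scaling 2 MondoA and ChREBP targets rose, 7 genes of the MYC, MAX and MXD network rose and 0 fell, 3 glucose transporter and hexokinase genes fell, 5 other arrestin-fold genes rose and 0 fell, and 7 NEDD4-family and ESCRT genes rose. At that setting TXNRD1, MAX, ARRB2, WWP1 and ARRDC3-AS1 also passed as higher. Without a filter the median was 0.13. At an adjusted p under 0.01, 1 gene of the MYC, MAX and MXD network fell. With 1 library left out, 1 to 2 genes of that network fell (1 without Erlo4 or Erlo5) and 1 to 2 MondoA and ChREBP targets rose (2 without DMSO2). MAX changed sign without DMSO1 (−0.025, in a range up to 0.047 with 1 library left out), and ARRDC1-AS1 with scaling to total counts (0.090), neither past the threshold. The difference in the TXNIP share was 12.4 to 15.2 percentage points over its alternatives, of which the canonical transcript length (14.3) was chosen after seeing the data. No paired analysis was possible because the erlotinib columns carry the numbers 4 to 6, which none of the erlotinib labels hold.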
